A study of Mus musculus with 6 samples.

Results

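The collagen chain genes were taken as every gene whose symbol is Col, a number, the letter a and a second number, with nothing after it. They came to 44 of the 57010 genes in the table. Expression was measured by RNA sequencing in gastrocnemius, a calf muscle of mainly fast fibres, from NSG mice, an immunodeficient strain. In both groups the mice carried a subcutaneous flank xenograft of MDA-MB-231, a human breast cancer line, with Rab27a knocked down. In the radiotherapy group (n = 3) that tumour alone was given 10 Gy in a single dose once it had grown to about 800 mm3, and muscle from the contralateral leg was collected 3 days later. The control group (n = 3) had the same tumours without treatment. The sources used here state neither age nor sex, the tumour cells are from a single line, and mice without the knockdown or without a tumour were not analysed here. Whether each sample is a different mouse is not stated, and p-values therefore reflect only the spread among the samples, which may be technical.

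Collagens are trimers of chains that wind into a triple helix. Fibrillar collagens form the tensile fibres of connective tissue. Network collagens form sheets, and those of type IV form that of the basement membrane. FACIT collagens sit on the surface of fibrils, type VI collagens build beaded filaments around cells, and transmembrane collagens span the cell membrane. In muscle most fibrillar collagen is made by fibroblasts and fibro-adipogenic progenitors, and its build-up is the hallmark of fibrosis, which the series title names as its question. Several chains belong to no class above, and these are placed together as other collagens (Col7a1 of anchoring fibrils, Col15a1 and Col18a1 of basement membrane borders, Col26a1 and Col28a1).

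No collagen chain separated the groups beyond the spread between libraries once the whole table was taken into account. The transmembrane chain Col23a1 was the single tested chain whose radiotherapy values all lay above the control values. The fibrillar chains Col1a1, Col1a2, Col3a1 and Col5a1 and the tested type VI chains differed far more between libraries of one group than between the groups. Control 1 was the highest library and control 3 the lowest for Col1a1, Col1a2, Col3a1, Col5a1, Col6a1, Col6a2 and Col6a3. The basement membrane chains Col4a1 and Col4a2 were among the first 3 of the 44 chains in every library. Col4a1 ranked first in every library except control 1, where Col3a1 ranked first.

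Values were TPM, a gene's share of all transcripts after correction for length, scaled to 1000000, so levels of different chains can be set beside each other. That fixed total leaves the sequencing depth unknown, and no counting interval can be given. Genes at 1 TPM or more in at least 3 of the 6 libraries were tested, and 16 of the 44 chains were among the 11375 tested genes. Fitted fold changes below are differences of log2(TPM + 1), radiotherapy minus control, which understate changes at low levels. The number of genes at 1 TPM ranged from 10890 to 11866 in radiotherapy libraries and from 10902 to 11650 in controls. Muscle fibre markers were abundant in every library, with all 10 of the list tested, although their summed TPM was lower after radiotherapy, between 66898 and 120237, against 137014 to 151170 in controls. Transcripts of the mitochondrial genome took 15.1 to 22.5% of TPM after radiotherapy and 8.93 to 13.7% in controls. Over the whole set of tested genes the median fold change was −0.11 on the log2 scale and 67.9% were negative; with the 50 most abundant and the mitochondrial genes removed the median was −0.02.

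Of the 44 chains, 25 stayed below 1 TPM in all 6 libraries. Among fibrillar chains these were Col2a1 of cartilage, which was listed at 0 throughout, Col11a1, Col24a1 and Col27a1, none above 0.82 TPM. The network chains Col4a3, Col4a4, Col4a5, Col4a6, Col8a1, Col8a2 and Col10a1 reached at most 0.41 TPM. The FACIT chains Col9a1, Col9a2, Col9a3, Col12a1, Col19a1 and Col22a1 stayed at or under 0.90 TPM, the highest being Col22a1, a chain of the muscle-tendon junction. The beaded filament chains Col6a4, Col6a5 and Col6a6 stayed at or under 0.17 TPM, and the transmembrane chains Col13a1, Col17a1 and Col25a1 at or under 0.29 TPM; Col13a1 and Col25a1 act at the neuromuscular junction. Col26a1 and Col28a1 did not pass 0.19 TPM. Col6a4 was the single untested chain whose groups did not overlap, at 0.03, 0.04 and 0.07 TPM in radiotherapy libraries 1, 2 and 3, against 0, 0 and 0.01 TPM in controls 1, 2 and 3, all close to 0. A further 3 chains reached 1 TPM in too few libraries to be tested. Col14a1, a FACIT chain of tendon and muscle sheaths, had 0.84, 0.66 and 0.98 TPM in radiotherapy libraries 1, 2 and 3, against 2.11, 1.12 and 0.42 TPM in controls 1, 2 and 3. Col5a2 had 0.95, 0.73 and 1.53 TPM after radiotherapy, against 1.71, 0.94 and 0.51 TPM in controls. Col20a1 had 0.93, 1.05 and 0.92 TPM after radiotherapy, against 0.74, 1.03 and 0.90 TPM in controls. In each of these chains the groups overlapped.

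**Figure D1:**
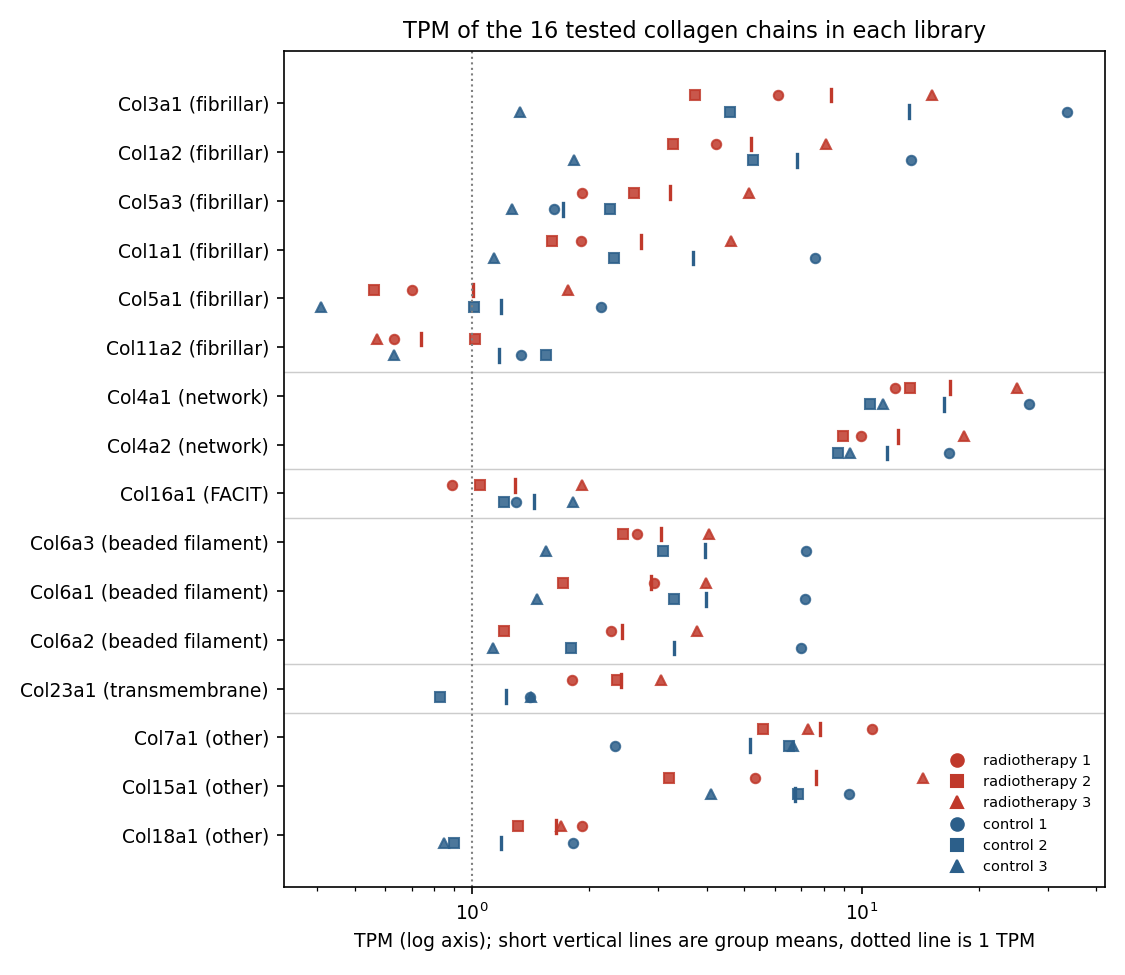
TPM (log axis) of the 16 tested collagen chains, by class, with radiotherapy above control for each chain, 1 symbol per library and a short line at each group mean. Control 1 lies far right and control 3 far left for the fibrillar chains Col3a1, Col1a2 and Col1a1 and for the 3 type VI chains, and Col23a1 is the chain whose groups do not overlap.

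Fibrillar chains showed the widest spread. Col3a1, the main chain of thin reticular fibres, had 6.10, 3.74 and 15.2 TPM in radiotherapy libraries 1, 2 and 3, against 33.7, 4.60 and 1.33 TPM in controls 1, 2 and 3. The highest library was thus 25.4 times the lowest, both of them controls, and the radiotherapy values lay between them. Col1a1, which with Col1a2 makes type I collagen, had 1.90, 1.61 and 4.63 TPM after radiotherapy, against 7.60, 2.31 and 1.14 TPM in controls. Col1a2 had 4.22, 3.29 and 8.08 TPM after radiotherapy, against 13.4, 5.26 and 1.83 TPM in controls. Both type I chains repeated the library order of Col3a1 at the ends, with control 1 on top and control 3 at the bottom. Col5a1, whose product helps to start type I fibrils, had 0.70, 0.56 and 1.76 TPM after radiotherapy, against 2.14, 1.01 and 0.41 TPM in controls, again with the extremes in the control group. In bulk muscle, fewer cells of a type and less RNA per cell cannot be told apart.

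Among the fibrillar chains 2 did not share that order. Col5a3, a further type V chain, had 1.92, 2.60 and 5.13 TPM in radiotherapy libraries 1, 2 and 3, against 1.62, 2.26 and 1.27 TPM in controls 1, 2 and 3. Its group means were 3.22 ± 1.69 TPM after radiotherapy and 1.72 ± 0.502 TPM in controls (SD, n = 3 each), and control 2 lay above radiotherapy 1, so the groups overlapped. Schwann cell markers summed to 33.9, 190 and 610 TPM in the same radiotherapy libraries, against 34.3, 114 and 36.0 TPM in controls, so that the 3 libraries highest in Col5a3 were the 3 highest in these markers, and their part in its values was not tested. Col11a2, known best from cartilage fibrils, had 0.63, 1.02 and 0.57 TPM after radiotherapy, against 1.34, 1.55 and 0.63 TPM in controls. The 5 chondrocyte markers summed to 0.29, 0.51 and 0.51 TPM after radiotherapy, against 1.0, 1.01 and 0.41 TPM in controls, so controls 1 and 2 were highest in both. Most of that sum was Comp, which tendon also expresses, at 0.16, 0.31 and 0.39 TPM after radiotherapy against 0.89, 0.94 and 0.36 TPM in controls, while Acan and Matn3 did not exceed 0.01 TPM, and the part of these cells in the Col11a2 values was not tested.

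RefSeq promoter windows, running from 250 bases before to 50 bases after a gene's start, were found for 35 of the 44 chain genes and 15 of the 16 tested chains. They are in build GRCm38.p6, while the submitters' processing notes name mm9, so they were matched by symbol. The window of Col1a2 (chr6:4505368-4505667, + strand) is shown for the chains that peaked in control 1, and that of Col7a1 (chr9:108953336-108953635, + strand) for a chain whose level was lowest in that library. Capitals mark CCAAT or its reverse complement ATTGG, and GGGCGG, whose reverse complement is CCGCCC; the marked letters of the 2 motifs do not overlap.
Col1a2: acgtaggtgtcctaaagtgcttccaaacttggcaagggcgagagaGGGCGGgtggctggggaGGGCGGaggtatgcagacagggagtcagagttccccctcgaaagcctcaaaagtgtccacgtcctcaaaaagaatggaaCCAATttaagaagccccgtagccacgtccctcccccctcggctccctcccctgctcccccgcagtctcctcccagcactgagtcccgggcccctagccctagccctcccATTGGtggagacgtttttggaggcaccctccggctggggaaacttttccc
Col7a1: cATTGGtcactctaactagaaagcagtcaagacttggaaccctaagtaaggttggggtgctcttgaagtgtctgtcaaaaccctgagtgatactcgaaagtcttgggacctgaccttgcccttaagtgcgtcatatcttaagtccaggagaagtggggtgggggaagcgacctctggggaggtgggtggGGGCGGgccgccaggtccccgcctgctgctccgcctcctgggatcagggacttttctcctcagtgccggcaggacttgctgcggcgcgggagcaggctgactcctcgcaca
Both windows hold both motifs, although the 2 genes had opposite extremes in control 1. On either strand, CCAAT occurs in 37.4% of all 32851 windows and in those of 7 of the 15 tested chains, and GGGCGG in 35.7% of all windows and in those of 11 of the 15. A chain counted if any of its windows held the motif, whereas the percentages are per window, so the shares are not on the same unit. A match here is a run of letters and not evidence of a bound factor.

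The network chains Col4a1 and Col4a2 ranked among the first 3 chains in every library, with little difference between the group means. Col4a1 had 12.2, 13.3 and 25.04 TPM in radiotherapy libraries 1, 2 and 3, against 26.9, 10.5 and 11.4 TPM in controls 1, 2 and 3. Col4a2, its partner in the common type IV collagen of basement membranes, had 9.94, 8.94 and 18.3 TPM after radiotherapy, against 16.8, 8.69 and 9.36 TPM in controls. Each group held 1 high library, radiotherapy 3 and control 1, and the other 4 libraries lay close together. The summed TPM of 8 endothelial markers was 194, 166 and 234 after radiotherapy, against 216, 164 and 137 in controls, so the same 2 libraries were highest there. Pericyte and smooth muscle markers were also highest in these libraries, at 192 TPM in radiotherapy 3 and 175 TPM in control 1. Control 2, the lowest library for both type IV chains, was close behind at 171 TPM. Fibroblast and leukocyte markers were highest in radiotherapy 3 and control 1 as well. The part of cell content in the type IV values was not tested. In RefSeq, Col4a1 and Col4a2 lie next to each other and are read in opposite directions from starts 21 bases apart, and their windows share 78 bases (chr8:11312777-11312854, + strand, GRCm38.p6). The stretch is shown because both chains take their start in it, with GGGCGG in capitals. It holds no CCAAT on either strand, although promoter windows of both Col4a1 and Col4a2 do.
Col4a1 and Col4a2: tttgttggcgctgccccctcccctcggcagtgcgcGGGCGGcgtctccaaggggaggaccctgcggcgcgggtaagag
Without strand information, reads from the bases that both genes transcribe cannot be divided between them.

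Beaded filament chains of type VI collagen, which links cells to the surrounding matrix, followed the fibrillar order. Col6a1 had 2.94, 1.71 and 3.98 TPM in radiotherapy libraries 1, 2 and 3, against 7.17, 3.31 and 1.47 TPM in controls 1, 2 and 3. Col6a2 had 2.27, 1.21 and 3.79 TPM after radiotherapy, against 7.0, 1.80 and 1.13 TPM in controls. Col6a3 had 2.66, 2.44 and 4.07 TPM after radiotherapy, against 7.22, 3.09 and 1.55 TPM in controls. For each of the 3 chains the radiotherapy libraries lay inside the range of the controls. Col16a1, the single tested FACIT chain, had 0.89, 1.05 and 1.92 TPM after radiotherapy, against 1.30, 1.21 and 1.82 TPM in controls, with the groups overlapping.

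Col23a1, a transmembrane chain that can be shed from the cell surface, had 1.81, 2.36 and 3.05 TPM in radiotherapy libraries 1, 2 and 3, against 1.41, 0.83 and 1.42 TPM in controls 1, 2 and 3. The lowest radiotherapy library thus exceeded the highest control. The group means were 2.41 ± 0.621 TPM after radiotherapy and 1.22 ± 0.338 TPM in controls (SD, n = 3 each), with a log2 fold change of 0.61 (SE 0.23, 95% interval 0.10 to 1.13). In limma, a linear model with a shared variance estimate, its unadjusted p was 0.0251 and its adjusted p over all genes tested was 0.977, so it did not pass. Of all tested genes, 193 had radiotherapy values wholly above the control values (1.7%), and 858 wholly below (7.54%). Col23a1 is 1 of 16 tested chains, or 6.25%, against 9.24% of all tested genes with groups apart in either direction. Leaving out each library in turn gave log2 fold changes between 0.48 and 0.74.

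Collagens outside the classes above had varied orders. Col7a1, the chain of the anchoring fibrils best known from skin, had 10.6, 5.59 and 7.28 TPM in radiotherapy libraries 1, 2 and 3, against 2.33, 6.51 and 6.68 TPM in controls 1, 2 and 3. It was the second to sixth most abundant chain in 5 libraries and the tenth in control 1, the library in which fibrillar chains peaked. The 5 keratinocyte markers summed to 8.02, 7.64 and 7.58 TPM after radiotherapy, against 9.77, 8.27 and 10.7 TPM in controls. Most of each sum was Krt10 and Trp63. Krt5 and Krt14 were listed at 0 in 5 libraries and at 0.21 and 0.43 TPM in radiotherapy 1, the library highest in Col7a1. Trp63 was lowest there at 4.12 TPM, and Krt10 was highest in control 1 at 3.90 TPM. The part of keratinocytes in the Col7a1 values was not tested. Col15a1, found where basement membranes meet the matrix around fibres and capillaries, had 5.34, 3.20 and 14.4 TPM after radiotherapy, against 9.30, 6.87 and 4.11 TPM in controls, with both extremes in the radiotherapy group. Col18a1, the source of endostatin, had 1.92, 1.31 and 1.69 TPM after radiotherapy, against 1.82, 0.90 and 0.85 TPM in controls; control 1 lay above 2 of the radiotherapy libraries. Col18a1 overlaps another protein-coding gene, and reads from the overlap cannot be assigned without strand.

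Over the whole table limma called 0 genes higher and 0 lower at an adjusted p of 0.05 (0% in each direction), and 0 of the 16 collagen chains. At an unadjusted p under 0.05, 435 genes were found in limma, 3.82% of those tested, of which 110 had higher values after radiotherapy (0.967%) and 325 lower (2.86%). Among the chains only Col23a1 reached that level, and the adjusted p of the chains ran from 0.977 to 0.999 (limma). Of the 16 chains 7 had positive fold changes and 9 negative, a median of −0.05 against −0.11 over all tested genes; under the 3 rescalings tried, 8 or 9 of the 16 were positive. The largest positive values after Col23a1 were those of Col5a3 (0.58, 95% interval −0.11 to 1.26) and Col7a1 (0.57, 95% interval −0.27 to 1.42). Without control 1 Col7a1 gave 0.18, and without radiotherapy 3 Col5a3 gave 0.27. Col11a2 had the lowest value (−0.30, 95% interval −0.82 to 0.21), and without control 2 it gave −0.18. A pseudocount of 0.1 in place of 1 gave −0.55 for Col11a2, 0.93 for Col23a1 and 0.49 for Col18a1, which stood at 0.29 before.

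The main fibril-forming chains had fold changes close to 0 with wide intervals. Col1a1 gave −0.17 (95% interval −1.29 to 0.95), Col1a2 gave −0.11 (−1.33 to 1.11) and Col3a1 gave 0.09 (−1.86 to 2.04) on the log2 scale. With 1 TPM added before the log, a doubling of TPM gives a difference below 1 on this scale. At the levels of these chains, the intervals of Col1a1, Col1a2 and Col3a1 each include both a doubling and a halving. Col1a2 turned to 0.0058 with the 50 most abundant and the mitochondrial genes removed. The type VI chains gave −0.24 for Col6a1, −0.15 for Col6a2 and −0.14 for Col6a3, and the type IV chains 0.10 for Col4a1 and 0.08 for Col4a2. The direction of these chains rested on single libraries: without control 1 Col3a1 gave 1.18, Col1a1 0.39 and Col6a1 0.20, and without control 3 they gave −0.77, −0.61 and −0.66. Without radiotherapy 3, Col4a1 gave −0.21 and Col4a2 −0.22. The median SE was 0.39 over the 16 chains and 0.27 over all tested genes.

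**Figure D2:**
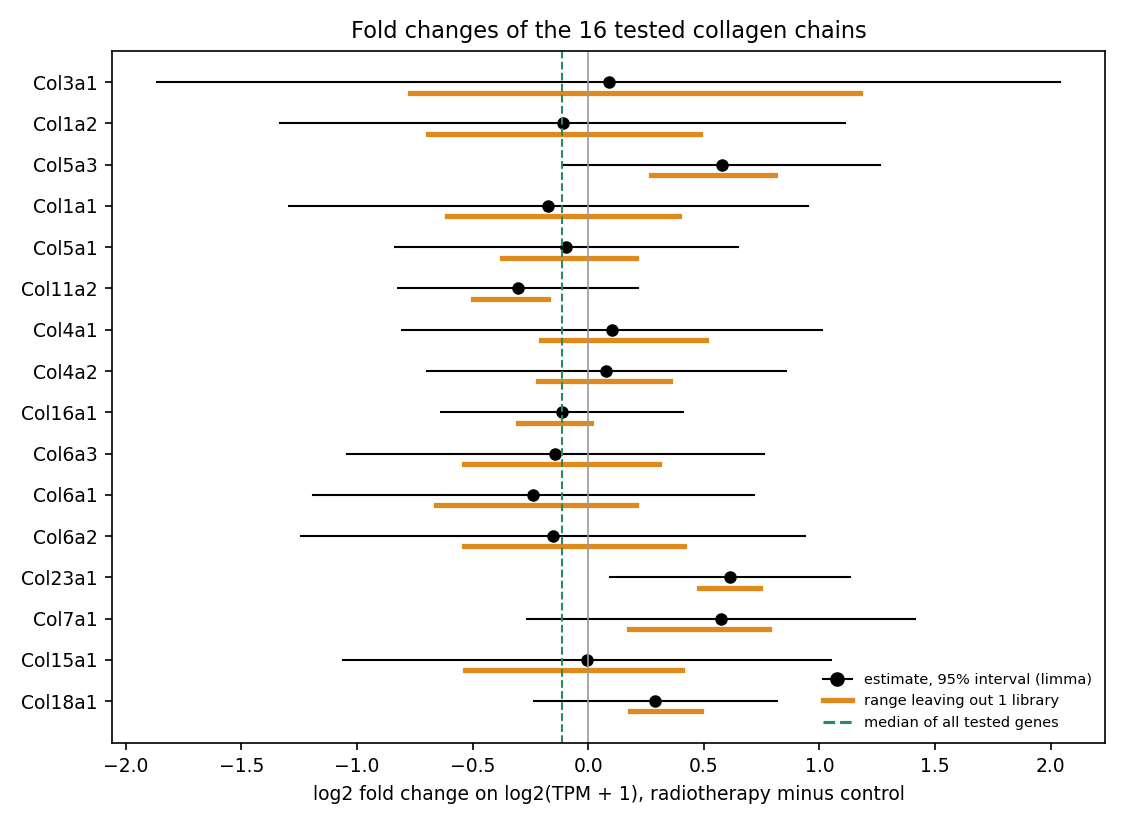
Log2 fold changes of the 16 tested chains on the log2(TPM + 1) scale, radiotherapy minus control. Points and black lines are limma estimates with 95% intervals, orange bars the range when 1 library is left out, and the dashed line the median of all tested genes, −0.11; Col23a1 alone has an interval above 0, and the orange bars of 11 chains cross 0.

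Summed by class, fibrillar chains came to 17.2, 14.5 and 38.1 TPM in radiotherapy libraries 1, 2 and 3, against 63.0, 18.9 and 7.75 TPM in controls 1, 2 and 3. The highest library was 8.12 times the lowest, compared with 2.21 times for the network class, at 22.9, 23.0 and 44.1 TPM after radiotherapy and 44.7, 20.2 and 21.4 TPM in controls. Beaded filament chains summed to 7.95, 5.42 and 12.0 TPM after radiotherapy, against 21.6, 8.32 and 4.18 TPM in controls. FACIT chains varied least, between 4.11 and 5.20 TPM after radiotherapy and between 4.22 and 5.21 TPM in controls. Transmembrane chains summed to 2.04, 2.56 and 3.28 TPM after radiotherapy, against 1.55, 1.29 and 1.68 TPM in controls, and did not overlap, a sum carried by Col23a1. The other collagens summed to 17.9, 10.2 and 23.6 TPM after radiotherapy, against 13.6, 14.5 and 11.7 TPM in controls. All 44 chains together made up 86.0 ± 35.3 TPM after radiotherapy and 89.6 ± 52.6 TPM in controls (SD, n = 3 each), with ranges of 59.9 to 126 TPM after radiotherapy and 50.9 to 150 TPM in controls.

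**Figure D3:**
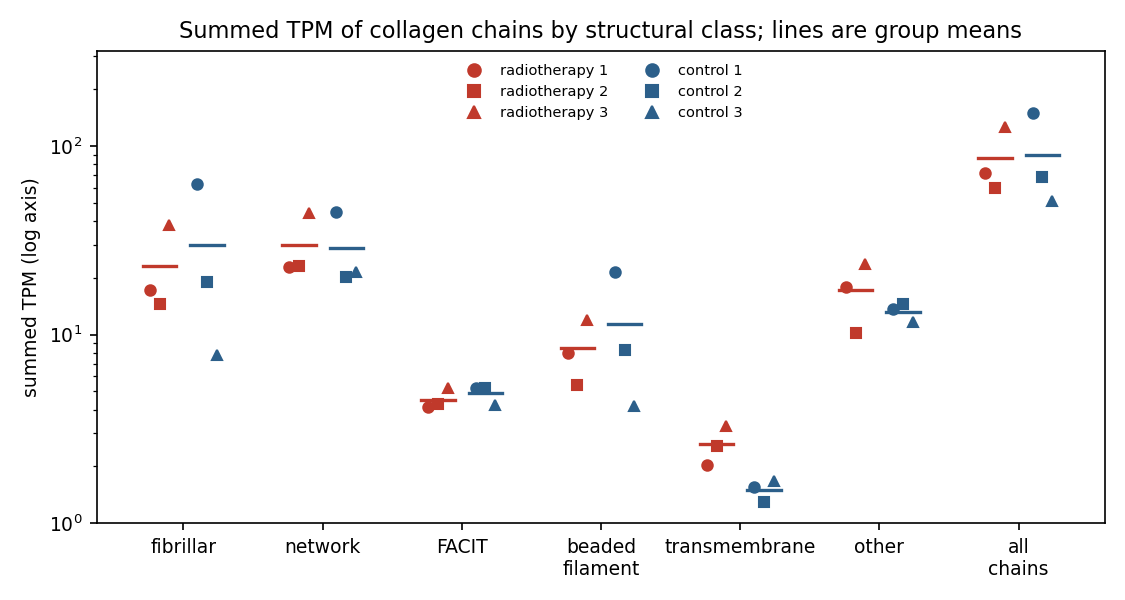
Summed TPM (log axis) of collagen chains by structural class and of all 44 chains, radiotherapy left of control, with 1 symbol per library and a line at each group mean. Fibrillar sums run from 7.75 to 63.0 TPM, both in controls, while the transmembrane sums of 2.04 to 3.28 TPM after radiotherapy lie above the 1.29 to 1.68 TPM of controls.

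The makeup of the collagen pool shifted with the library as well. Fibrillar chains took 23.8, 24.2 and 30.2% of collagen TPM in radiotherapy libraries 1, 2 and 3, against 42.1, 27.7 and 15.2% in controls 1, 2 and 3. Network chains took 31.8, 38.4 and 34.9% after radiotherapy, against 29.9, 29.5 and 42.1% in controls. Control 1 was therefore richest in fibrillar and control 3 in network collagen, and the radiotherapy libraries lay between them for fibrillar chains. Col3a1 alone made up 22.6% of collagen TPM in control 1 and 2.61% in control 3.

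Chains of one trimer varied less against each other than each did alone, and such a ratio is not altered by how a library is scaled. The ratio of Col1a1 to Col1a2 was 0.450, 0.489 and 0.573 in radiotherapy libraries 1, 2 and 3, against 0.566, 0.439 and 0.623 in controls 1, 2 and 3. On the log2 scale, with 0.1 TPM added to both chains, this ratio ranged over 0.51, while the single chains ranged over 2.63 and 2.81 across the 6 libraries. Col4a1 to Col4a2 stood at 1.23, 1.49 and 1.37 after radiotherapy, against 1.61, 1.21 and 1.21 in controls, a log2 range of 0.41, where the chains alone ranged over 1.35 and 1.06. For Col6a3 to Col6a1 the ratio was 0.905, 1.43 and 1.02 after radiotherapy, against 1.01, 0.934 and 1.05 in controls. Col6a1 to Col6a2, neighbours on chromosome 10, ranged over 0.81 on the log2 scale.

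Ratios between different collagen types moved more. Col3a1 to Col1a1 was 3.21, 2.32 and 3.28 in radiotherapy libraries 1, 2 and 3, against 4.44, 1.99 and 1.17 in controls 1, 2 and 3, a log2 range of 1.93, with both extremes in controls. Col15a1 to Col18a1, the chains of the multiplexin family, was 2.78, 2.44 and 8.53 after radiotherapy, against 5.11, 7.63 and 4.84 in controls. None of the 7 ratios differed between the groups beyond the libraries: exact two-sided permutation p ran from 0.4 to 0.9, adjusted p was 0.9 for each (Benjamini-Hochberg over the 7), and 3 samples against 3 cannot give less than 0.1. The largest differences of mean log2 ratio, radiotherapy minus control, were −0.52 for Col15a1 to Col18a1 and 0.40 for Col3a1 to Col1a1. Both rested on single libraries: Col15a1 to Col18a1 gave −0.19 without radiotherapy 2 and −1.09 without radiotherapy 3, and Col3a1 to Col1a1 gave 0.91 without control 1 and −0.0530 without control 3. With 1 TPM added in place of 0.1, the difference for Col15a1 to Col18a1 was −0.30.

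**Figure D4:**
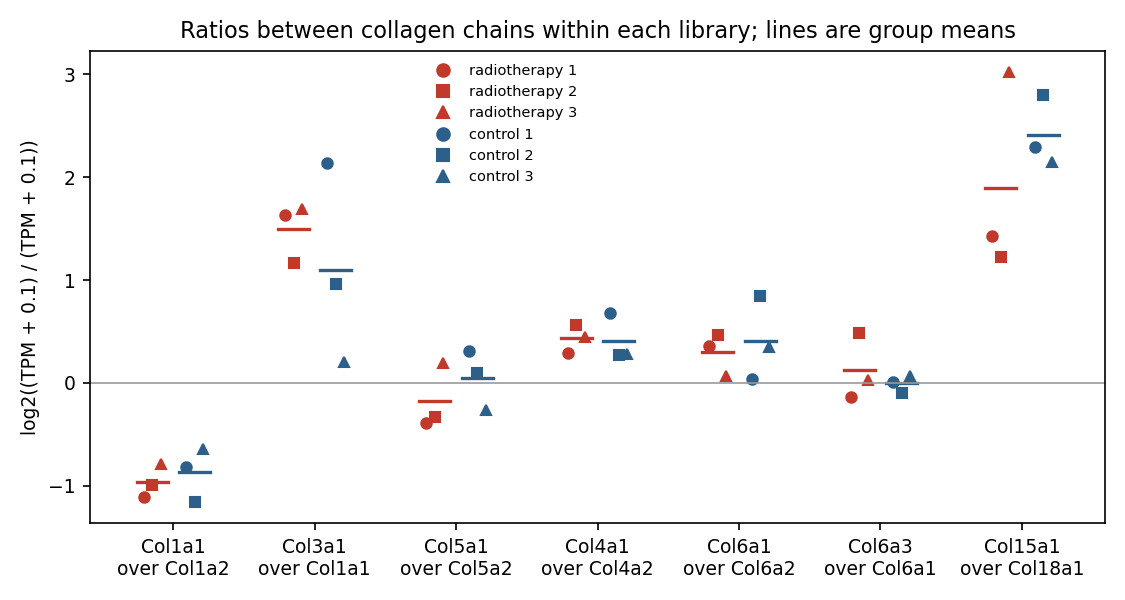
Log2 ratios between 2 collagen chains within each library, with 0.1 TPM added to each chain, radiotherapy left of control; lines are group means and the grey line marks equal levels. The 6 libraries span 0.51 for Col1a1 over Col1a2 and 0.41 for Col4a1 over Col4a2, against 1.93 for Col3a1 over Col1a1.

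The order of the libraries was not that of the table as a whole, except that radiotherapy 3 was often the highest library in both. The maximum was found in control 1 for 8 of the 16 tested chains and for 17.2% of all tested genes, and the minimum in control 3 for 9 of the 16 and for 14.4% of all. Both held for 7 chains, 43.8% of those tested, and for 4.47% of all tested genes. Radiotherapy 3 was the highest library for 5 chains (Col5a3, Col4a2, Col16a1, Col23a1 and Col15a1), or 31.25% of those tested, against 35.9% of all tested genes. In that library 15 of the 16 chains lay above their 6-library mean. The median deviation from that mean there was 0.53 for the chains and 0.20 for all tested genes on the log2 scale. Radiotherapy 2 was the lowest library for 52.9% of all tested genes but for 1 of the 16 chains, Col15a1.

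Of the 13 marker lists, the fibroblast list alone had both its highest sum in control 1 and its lowest in control 3, the latter by a small margin. The 10 fibroblast and fibro-adipogenic progenitor markers summed to 512, 402 and 563 TPM in radiotherapy libraries 1, 2 and 3, against 885, 412 and 398 TPM in controls 1, 2 and 3, with 7 of the 10 highest in control 1. Ly6a made up most of the control 1 sum, at 527 TPM. Its own lowest library was control 2 at 118 TPM, against 169 TPM in control 3 and 212 TPM in radiotherapy 2. Without Ly6a the fibroblast sum was still highest in control 1 but lowest in radiotherapy 2, so the low end of the order rested on this gene. Leukocyte markers summed to 156, 176 and 748 TPM after radiotherapy, against 1759, 289 and 279 TPM in controls, and all 8 were highest in control 1, although the lowest sum was that of radiotherapy 1. Control 1 and radiotherapy 3 were thus the highest libraries in fibrillar chains, fibroblast markers and leukocyte markers alike, and the part of cell content in the collagen values was not tested. Tenocyte markers were lower after radiotherapy in sum, at 12.6, 12.0 and 17.2 TPM, against 42.0, 37.0 and 20.0 TPM in controls, without overlap. The sums of muscle fibre, red blood cell and keratinocyte markers were also lower without overlap, the last being mostly Krt10 and Trp63. Of all tested genes, 7.54% had radiotherapy values wholly below the control values. For Col1a1, a tendon collagen, the groups overlapped, and the part of tendon content in the collagen values was not tested. Adipocyte markers summed to 2289, 580 and 905 TPM after radiotherapy, against 801, 865 and 265 TPM in controls. Pericyte and smooth muscle markers lay between 147 and 192 TPM after radiotherapy and between 114 and 175 TPM in controls, and neuromuscular junction markers between 15.1 and 24.6 TPM after radiotherapy and between 20.3 and 26.5 TPM in controls. Satellite cell markers summed to 1213 to 2063 TPM after radiotherapy and 1459 to 2330 TPM in controls. Red blood cell markers summed to 930 to 1618 TPM after radiotherapy and 3352 to 7203 TPM in controls without overlap. In limma 0 members of these lists passed over all genes tested, the smallest adjusted p being 0.648 for a red blood cell marker.

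**Figure D5:**
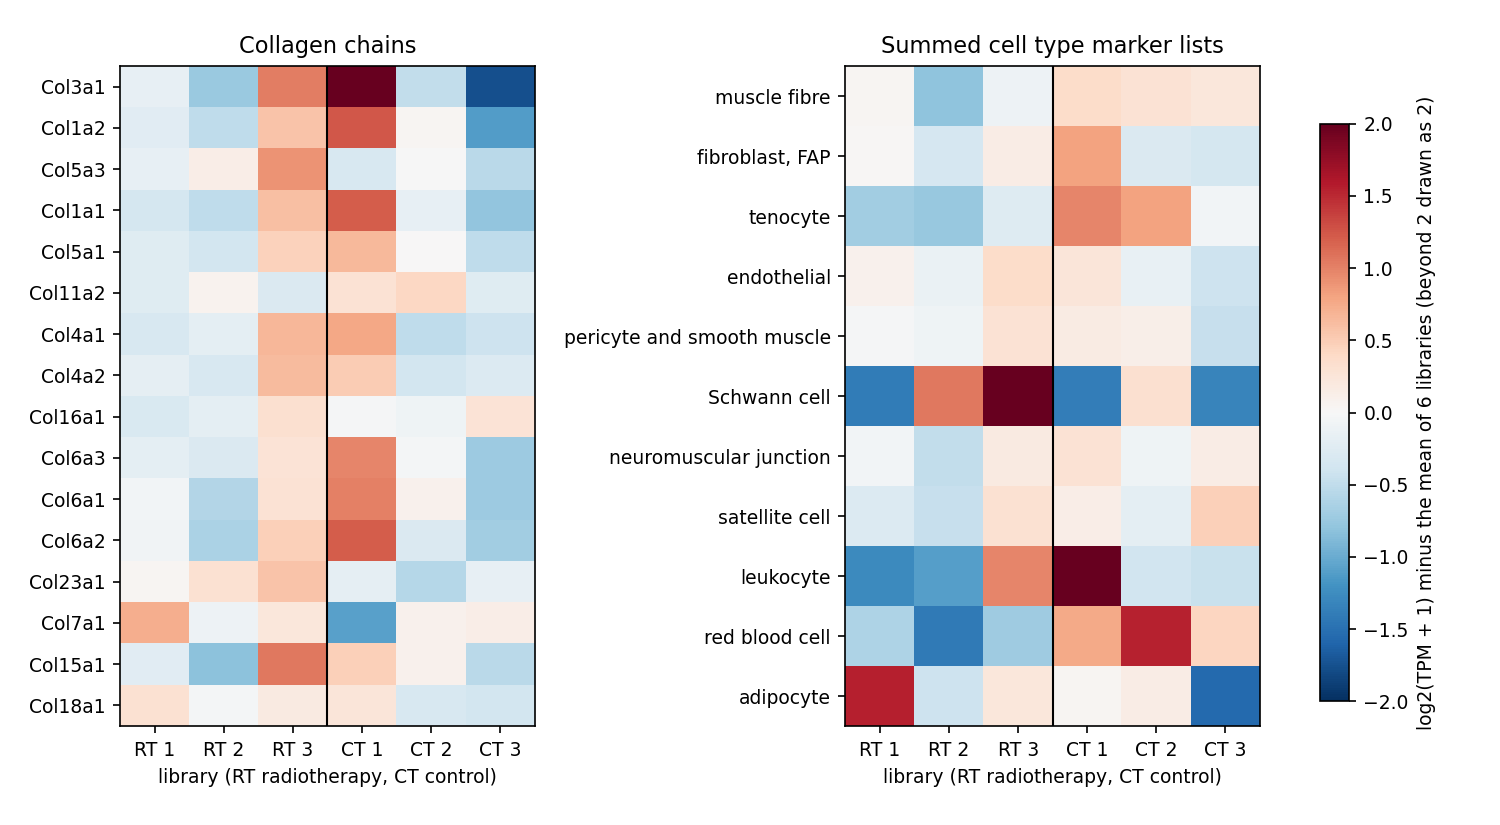
Deviation of log2(TPM + 1) from the 6-library mean for the 16 tested collagen chains (left) and for summed marker lists with at least 3 tested members (right), 1 column per library, radiotherapy left of control. Control 1 is red for Col3a1, Col1a2, Col1a1, Col5a1 and the type VI chains. It is also red for leukocyte, tenocyte, fibroblast and red blood cell markers. Control 3 is blue for most chains, while Col7a1 is blue in control 1.

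Genes that fold, process, bind and degrade collagen were compared as lists, and limma called 0 members of any list over all genes tested. Of 20 genes for folding and secretion 16 were tested, 5 positive and 11 negative, with a median log2 fold change of −0.14. P4ha1, a prolyl hydroxylase that stabilises the triple helix, had 8.23, 6.63 and 14.1 TPM in radiotherapy libraries 1, 2 and 3, against 13.9, 15.98 and 11.1 TPM in controls 1, 2 and 3 (log2 fold change −0.51, limma adjusted p = 0.977). Sec23a, a coat protein of vesicles that export procollagen, gave −0.51, and Crtap, part of the prolyl 3-hydroxylation complex, gave 0.39. Of 13 processing and crosslinking genes 6 were tested, 3 in each direction, with a median of −0.01. Lox, which crosslinks collagen, had 1.39, 2.65 and 6.92 TPM after radiotherapy, against 3.34, 2.85 and 1.58 TPM in controls (0.23). Pcolce, an enhancer of procollagen cleavage, was highest in control 1 at 30.0 TPM, like the fibrillar chains, and gave −0.14, with −0.11 for its relative Pcolce2.

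Collagen receptors and proteases gave no call either. Of 12 receptor genes 4 were tested, 2 in each direction, with a median of −0.09. The discoidin receptor Ddr1 gave −0.29, the integrin subunit Itgb1 −0.31 and the type VI collagen receptor Cspg4 0.27. Of 12 degradation genes 7 were tested, 3 positive and 4 negative, with a median of −0.04. Timp2, an inhibitor of matrix metalloproteinases, had 7.95, 5.41 and 10.4 TPM in radiotherapy libraries 1, 2 and 3, against 17.1, 12.9 and 9.94 TPM in controls 1, 2 and 3. Its log2 fold change was −0.69 (SE 0.30), with an unadjusted p of 0.0473 in limma and an adjusted p of 0.977. The metalloproteinase Mmp15 gave −0.32 and the fibroblast protease Fap −0.17.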

How the data were processed

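TPM values were deposited by the authors in 1 table, with a column for each of the 6 samples, from TruSeq RNA libraries of total RNA per the labels' protocols. HISAT2, StringTie and RSEM and genome build mm9 are named per the submitters' processing notes. Annotation, strandedness, tool versions and what each tool did were not given in the sources used here. TPM fixes each library's total, so depth, counting intervals and detection limits are unknown. At most 3.35% of nonzero values were equal in any pair of libraries.

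Values were transformed to log2(TPM + 1) for genes at 1 TPM or more in at least 3 samples. limma 3.58.1 in R 4.3.3 (lmFit, eBayes with trend, two-sided) was fitted on all 11375 such genes with a single group term and Benjamini-Hochberg adjustment over all of them (threshold 0.05). It was tested on simulated data. Chain ratios, 7 in number, were compared by exact permutation over samples. Sums and medians over chains have no test. The naming rule took every chain, and up to 3 tested genes of smallest p from each of 4 pathway lists (57 genes); 13 lists of cell type markers (91 genes) were summed. Per-library values of Col20a1 and Col6a4 and of single marker genes lie outside that rule and were chosen after their values were seen. The members and lists were chosen with earlier results of these data known. Promoter sequences are from RefSeq (GRCm38.p6). Figures used matplotlib 3.10.9. Alternatives were another pseudocount, other filters and scalings, limma without trend, a replicate block and each sample left out.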

Additional observations from a re-analysis of the deposited data

How the results depend on the processing

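No collagen chain was called in limma under any of the 15 alternatives. Over all genes tested, 0 to 1 genes were called when single libraries were left out (Gm24497 without radiotherapy 1, Gm55635 without control 1, both named after their values were seen) and 6 without control 1 and radiotherapy 3 together, an alternative chosen after seeing the data. Rescaling turned Col15a1 positive (0.0659 by median-of-ratios, 0.0843 by quantile normalization, 0.0847 without the 50 most abundant and the mitochondrial genes, which also gave 0.0058 for Col1a2). Without control 1 and radiotherapy 3, Col6a1 gave 0.0021, Col1a1 0.0478, Col6a2 0.14, Col1a2 0.17 and Col6a3 0.14. Leaving out 1 library gave log2 fold changes from −0.66 to 0.20 for Col6a1, −0.61 to 0.39 for Col1a1, −0.54 to 0.42 for Col6a2, −0.77 to 1.18 for Col3a1, −0.37 to 0.21 for Col5a1, −0.53 to 0.41 for Col15a1, −0.69 to 0.48 for Col1a2, −0.21 to 0.51 for Col4a1, −0.22 to 0.35 for Col4a2, −0.30 to 0.0103 for Col16a1 and −0.54 to 0.31 for Col6a3. The 5 chains that kept their sign ran from 0.18 to 0.78 for Col7a1, 0.27 to 0.81 for Col5a3, 0.18 to 0.49 for Col18a1, 0.48 to 0.74 for Col23a1 and −0.50 to −0.18 for Col11a2. A pseudocount of 0.1 moved Col3a1 to 0.23, Col16a1 to −0.20 and Col15a1 to −0.0275, and without the mitochondrial and 50 most abundant genes Col18a1 gave 0.47. The median over the chains ran from −0.32 to 0.37. Differences of log2 ratios ran from −0.24 to 0.0198 for Col1a1 to Col1a2, −0.0530 to 0.91 for Col3a1 to Col1a1, −0.0432 to 0.16 for Col4a1 to Col4a2, −0.30 to 0.11 for Col6a1 to Col6a2, −1.09 to −0.19 for Col15a1 to Col18a1, −0.41 to −0.0953 for Col5a1 to Col5a2 and −0.0491 to 0.27 for Col6a3 to Col6a1. The causes were not tested. Same-numbered samples did not deviate together (r of −0.06, 0.02 and −0.11), so the labels' numbers were not used as pairs; with a replicate block limma called 0 genes (smallest adjusted p 0.818) and 0 chains.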
